A study of Homo sapiens with 32 samples.

Results

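The integrin and laminin genes are the adhesion receptors of the cell surface and the basement membrane proteins that several of them bind. The 37 genes described here are 26 integrin genes and 11 laminin chain genes, chosen by family membership, out of 20033 protein-coding genes with a RefSeq span on assembly GRCh38.p14. The data are peak lists of the transcription factor HNF4α, and a peak was counted for a gene when its summit lay within 50 kb of the gene's span. Such a peak is near the gene and is not thereby assigned to it.

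Integrins are heterodimers of an α and a β subunit that join the matrix outside a cell to actin or, for α6β4, to intermediate filaments inside it. Laminins are trimers of an α, a β and a γ chain that form the core of the basement membrane under epithelia, and the α3β1, α6β1, α6β4 and α7β1 integrins bind them. HNF4α is a nuclear receptor of endodermal epithelia, transcribed from the P1 or the P2 promoter, and P1 and P2 isoforms differ at their N-terminal end.

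The study measured HNF4α by chromatin immunoprecipitation and sequencing (ChIP-seq) in 3 human pancreatic ductal adenocarcinoma lines, Panc10.05, BxPC3 and AsPC1. Panc10.05 and BxPC3, grown as 2D cultures, expressed P1-α2 or P2-α8 under doxycycline. BxPC3 received 500 ng/mL whichever isoform it carried. In Panc10.05 the dose was 25 ng/mL where P1-α2 was expressed and 12.5 ng/mL where P2-α8 was, so isoform and dose differ together there. AsPC1 cells carried a CRISPR interference guide labelled sgP1 or sgP2, against the isoforms of that promoter, or the guide labelled sgNC, with no doxycycline given in the labels. The titles name 1 guide for each promoter. Of 32 libraries, 18 had a peak list and fell into 9 groups of 2: 14 lists were made with an antibody to all HNF4α isoforms, called pan lists below, and 4, from AsPC1 sgNC and sgP2, with an antibody to P1 isoforms. The 14 input libraries were not used here. The titles of the BxPC3 P2-α8 libraries name α8 together with P1, and their genotype label, P2-α8, was followed.

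Pan lists held 11686 to 41808 peaks, P1-antibody lists 3916 and 5200 in sgP2 cells and 260 and 697 in sgNC cells. The depth behind the lists is unknown. Every induced list began at a −log10 q just above 8 and every AsPC1 list just above 2, so tests of AsPC1 against the induced lines used peaks at −log10 q of at least 8. Levels of full lists of AsPC1 and of the induced lines stand at different thresholds. The lists hold no expression, so the identity of the lines could not be checked against markers, and cell line and library series cannot be told apart. Nothing in the labels says that replicates came from separate cultures, so p-values measure only the spread between these libraries.

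The promoter sequences are shown first because they are the places where a peak lay on a member's own annotated start. A RefSeq table (GRCh38.p14) gave the promoter of 26 of the 37 genes. The 250 bases before the start are printed for the 5 genes whose promoter was overlapped by a peak in 5 or more pan lists, apart from LAMB3, whose 5 summits lay farther off, at −585 to −326 bp. The LAMB2 summits lay 54 to 264 bp after the start, so beyond the bases printed for it. Those of ITGB1 lay from −262 to 306 bp, and none of them was in its printed bases either. Most LAMA3 summits lay after the start as well, with a median of 79.0 bp. The ITGA1 summits lay from −31 to 202 bp, 10 of 11 of them after the start and so also beyond the printed bases. Capitals mark the letters CAAAG on either strand, with which the longer HNF4 motifs CAAAGTCCA and CAAAGGTCA begin.
LAMA3 (chr18:23872770-23873019, + strand): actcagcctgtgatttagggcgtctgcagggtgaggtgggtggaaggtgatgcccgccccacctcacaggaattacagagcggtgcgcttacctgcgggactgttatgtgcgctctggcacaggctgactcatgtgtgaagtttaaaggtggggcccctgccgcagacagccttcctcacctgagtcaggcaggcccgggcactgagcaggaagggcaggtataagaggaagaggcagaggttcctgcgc
ITGA1 (chr5:52787666-52787915, + strand): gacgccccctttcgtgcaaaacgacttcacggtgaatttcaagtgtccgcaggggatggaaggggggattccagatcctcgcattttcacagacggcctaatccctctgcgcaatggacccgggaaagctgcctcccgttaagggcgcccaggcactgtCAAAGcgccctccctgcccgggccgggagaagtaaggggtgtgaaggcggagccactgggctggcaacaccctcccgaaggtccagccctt
ITGB1 (chr10:32958231-32958480, − strand): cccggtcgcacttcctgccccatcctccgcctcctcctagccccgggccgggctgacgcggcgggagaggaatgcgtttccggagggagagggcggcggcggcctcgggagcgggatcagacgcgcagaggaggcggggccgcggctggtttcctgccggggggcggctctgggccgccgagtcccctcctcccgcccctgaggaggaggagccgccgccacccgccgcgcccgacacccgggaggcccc
LAMB2 (chr3:49133051-49133300, − strand): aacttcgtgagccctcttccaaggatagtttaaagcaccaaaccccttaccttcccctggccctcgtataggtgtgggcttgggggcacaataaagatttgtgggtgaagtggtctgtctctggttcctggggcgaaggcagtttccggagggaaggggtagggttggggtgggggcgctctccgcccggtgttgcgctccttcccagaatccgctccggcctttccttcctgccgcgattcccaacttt
ITGA2 (chr5:52989102-52989351, + strand): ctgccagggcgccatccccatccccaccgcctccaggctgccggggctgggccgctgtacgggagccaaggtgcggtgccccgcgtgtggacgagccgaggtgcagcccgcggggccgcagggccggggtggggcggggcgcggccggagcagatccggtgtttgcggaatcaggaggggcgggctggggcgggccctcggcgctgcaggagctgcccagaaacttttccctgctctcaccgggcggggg

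A peak overlapped the LAMA3 promoter in 14 of 14 pan lists and in 1 P1-antibody list of sgP2 cells. LAMA3 encodes the α3 chain of laminin-332, the laminin of hemidesmosomes. The start in the table lies inside the gene: the span began at −184 kb from it and ended at 82.0 kb. Summits lay between −269 and 162 bp of the start. Percentiles of these peaks within their lists (100 being the strongest by fold enrichment) were 54.3 and 73.3 in Panc10.05 P1-α2, 80.4 and 84.6 in Panc10.05 P2-α8, 74.8 and 56.1 in BxPC3 P1-α2 and 61.6 and 1.59 in BxPC3 P2-α8. In AsPC1 they were 66.8 and 66.0 with sgNC, 8.36 and 9.45 with sgP1 and 35.7 and 55.9 with sgP2. The promoter peak was thus present in every pan list and low in 1 BxPC3 list and both sgP1 lists. It was lower with sgP1 and with sgP2 than with sgNC in both libraries of each. The sgNC lists were also longer, at 24295 and 15118 peaks against 14038 and 11686 with sgP1 and 12345 and 15116 with sgP2. The order was not tested and was not read at equal list length.

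The other promoters were overlapped in fewer lists. The ITGA1 promoter, of the α1 collagen receptor subunit, was overlapped in 11 pan lists: 5 induced and all 6 of AsPC1. Sites upstream of ITGA1 were equally near to PELO, whose span begins at the same place. A peak at this start therefore belongs to ITGA1 no more than to PELO. The ITGB1 promoter, of the β1 subunit shared by most α subunits, was overlapped in 9, of which 3 were induced and 6 AsPC1. LAMB2, the β2 chain, had a promoter peak in the 4 Panc10.05 lists and 5 AsPC1 lists and in 0 BxPC3 lists. ITGA2, the α2 collagen receptor subunit, had one in the 4 Panc10.05 lists and 1 AsPC1 list. The remaining members with a promoter peak in any pan list were LAMA5 and LAMC1 in 4 lists each, ITGB5 in 2 and ITGA6, ITGAV and ITGB8 in 1 each. Between 1 and 9 of the 26 member promoters were overlapped in a pan list, where 1.34% to 19.4% of all 15842 promoters were. The letters CAAAGTCCA, searched on both strands of the 250 bases, were in 0 of 26 member promoters and 0.259% of all promoters, and CAAAGGTCA in 0 and in 0.290%. The core CAAAG, contained in both of these and added after the data were seen, was in 4 of 26 (ITGA1, ITGAE, ITGAM and LAMA2) and in 37.9% of all. Of the 5 promoters printed, the one of ITGA1 holds it.

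HNF4α peaks lay near most of the family in every pan list. Of 37 genes, 32 and 34 had a peak in the Panc10.05 P1-α2 lists, 34 and 34 in Panc10.05 P2-α8, 35 and 33 in BxPC3 P1-α2 and 25 and 29 in BxPC3 P2-α8. In AsPC1 the pan lists reached 31 and 24 with sgNC, 26 and 25 with sgP1 and 26 and 27 with sgP2. A peak in all 14 pan lists was found for 18 of 37 genes, against 29.6% of all protein-coding genes. The genes are long, with a median span of 79.4 kb against 24.1 kb for all protein-coding genes, which gives a peak more room. Per length the figure was also above the average: their windows cover 0.390% of the bases in protein-coding windows and held 0.641% to 0.672% of the peaks there in lists of Panc10.05, 0.482% to 0.519% in lists of BxPC3 and 0.877% to 0.991% in pan lists of AsPC1.

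Both lists of a group held a peak for 32 genes in Panc10.05 P1-α2, beside 74.5% of all genes, for 33 in Panc10.05 P2-α8 (79.5%), for 33 in BxPC3 P1-α2 (76.6%) and for 24 in BxPC3 P2-α8 (45.4%). The counts were 24 with sgNC (58.5%), 24 with sgP1 (50.6%) and 25 with sgP2 (52.0%). With the P1 antibody they were 0 in sgNC cells (2.31%) and 13 in sgP2 cells (23.7%). The median over the 37 genes of the mean best percentile in the 14 pan lists (a list with no peak counting 0) was 70.9, and 46.0 over all genes.

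**Figure D1:**
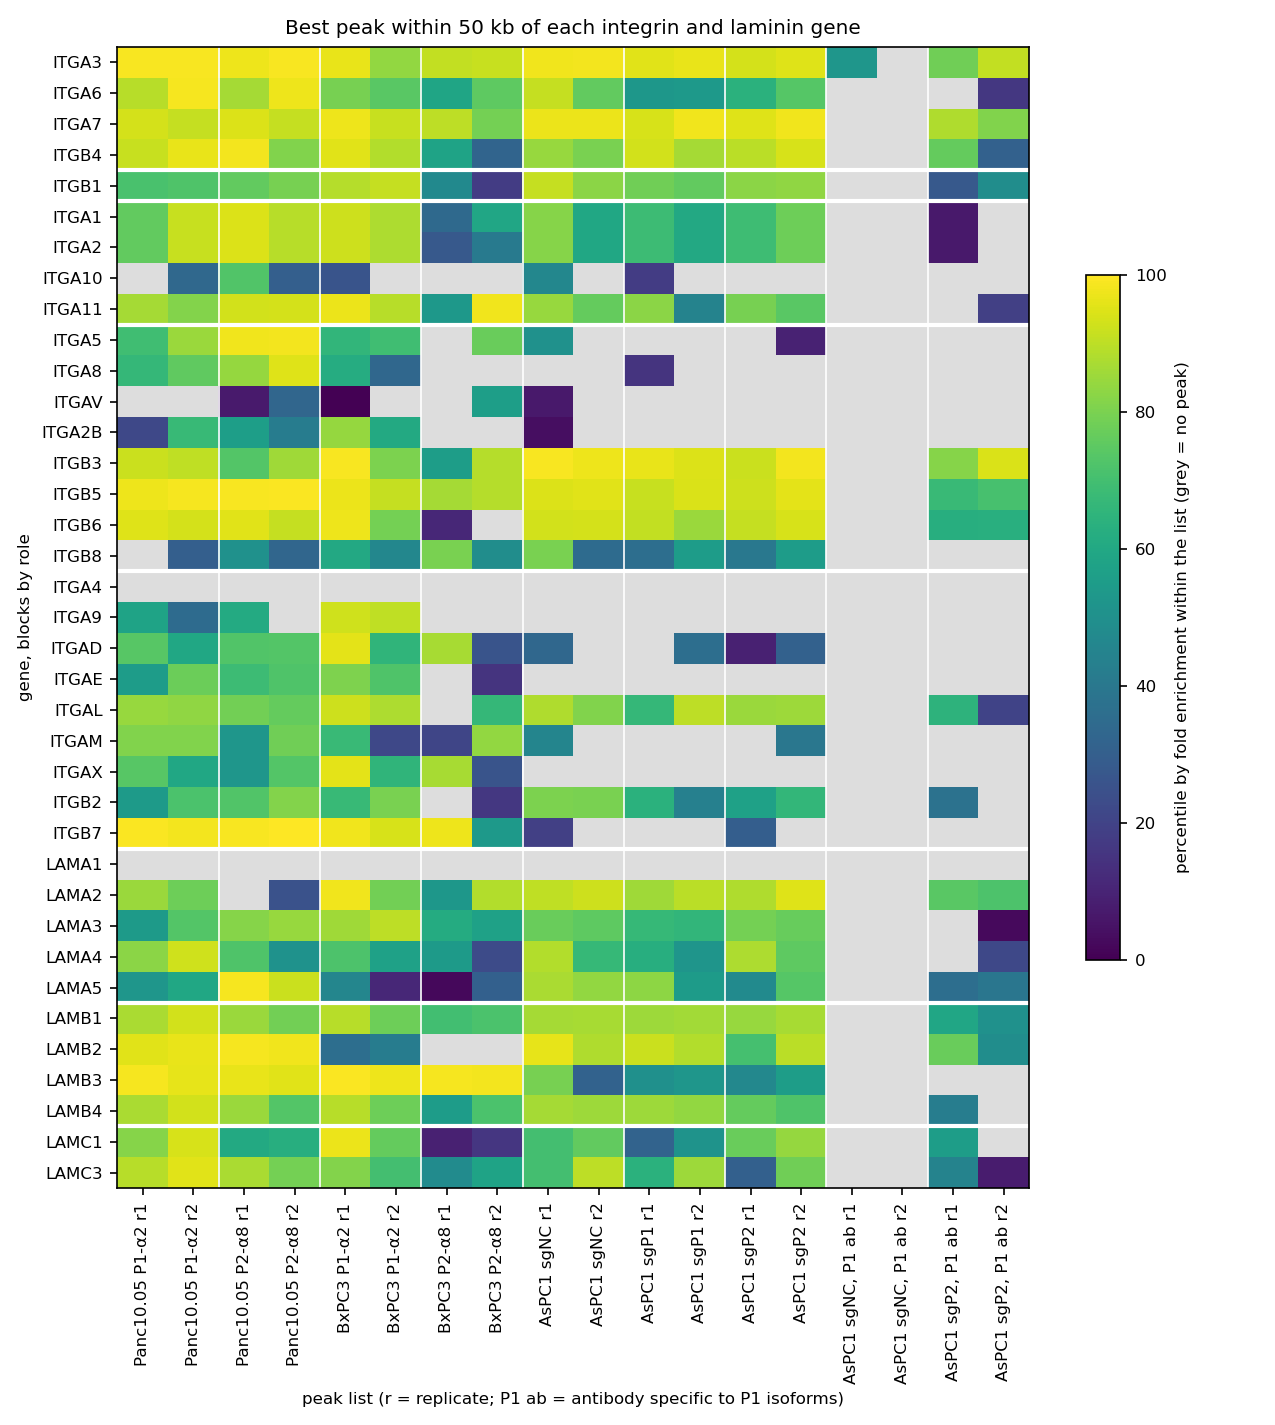
Percentile, by fold enrichment within its list, of the strongest peak within 50 kb of each of 37 genes (rows, blocks by role in the order of the text) in each of 18 lists (columns). Grey cells have no peak: ITGA4 and LAMA1 are grey throughout, and the laminin-binding integrins in the top block have a peak in all 14 pan lists.

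The laminin-binding integrins ITGA3, ITGA6, ITGA7 and ITGB4 had a peak in every pan list. ITGA3, the α3 subunit, had the highest mean best percentile of the family, 95.4, from 83.9 to 99.2. Its values were 99.0 and 99.2 in Panc10.05 P1-α2, 97.5 and 99.0 in Panc10.05 P2-α8, 96.6 and 83.9 in BxPC3 P1-α2 and 90.9 and 91.5 in BxPC3 P2-α8. In AsPC1 they were 98.0 and 98.3 with sgNC, 95.7 and 96.8 with sgP1 and 93.7 and 95.0 with sgP2. It was also the one member with a peak in a P1-antibody list of sgNC cells, at percentile 52.4 in replicate 1. Most of these values belong to 1 site inside the gene, chr17:50056808-50058313, present in 17 of 18 lists with a mean percentile of 95.2 over the pan lists.

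ITGA7, the α7 subunit known from muscle, averaged 93.4. Its values were 93.5 and 91.1, 94.8 and 91.1, 97.3 and 91.7 and 90.0 and 79.0 in the induced groups in the order given above, and 97.2 and 97.0, 93.8 and 97.7 and 95.2 and 98.0 with sgNC, sgP1 and sgP2. The 2 strong sites of its window, chr12:55681076-55683034 and chr12:55719702-55721495, had their summits in the promoters of TMT1B and RDH5, neighbouring genes. These sites carried the best percentile in 10 of 14 pan lists, 5 each. In the other 4, all of induced lines, it lay at neither: in 3 at chr12:55657104-55659938, nearest to OR10P1, and in 1 at chr12:55695222-55696271 inside ITGA7.

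ITGB4, the β4 subunit of the hemidesmosome receptor, averaged 83.5. Its values were 91.7 and 96.6 in Panc10.05 P1-α2, 98.4 and 80.9 in Panc10.05 P2-α8, 95.6 and 88.6 in BxPC3 P1-α2 and 58.2 and 32.2 in BxPC3 P2-α8. They were 84.6 and 80.0, 93.0 and 86.4 and 89.5 and 94.0 with sgNC, sgP1 and sgP2. In the full lists both BxPC3 P2-α8 lists lay below every other pan list. With the induced lists cut to equal length they stood at 58.2 and 21.5. A Panc10.05 P2-α8 list then lay between them, at 49.4, so the order did not hold. Within 10 kb ITGB4 stood at 49.7 in a BxPC3 P1-α2 list and had no peak in the other BxPC3 lists. The higher BxPC3 P1-α2 values thus came from peaks farther than 10 kb from the gene. ITGA6, the partner of β4, ranged from 52.9 in an sgP1 list to 98.7 in a Panc10.05 list. ITGB1 was in all 14 pan lists, from 17.9 in BxPC3 P2-α8 to 91.4 in BxPC3 P1-α2.

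Of the collagen-binding integrins, ITGA1, ITGA2 and ITGA11 were in all 14 pan lists and ITGA10 in 6. ITGA1 and ITGA2 are neighbours on chromosome 5 and share 8 of their sites, so their best percentile is the same peak in 12 of the pan lists. ITGA11 ranged from 44.7 to 97.8.

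The RGD-binding integrins, receptors of fibronectin, vitronectin and latent TGF-β, were less even, with 2 of 8 in all pan lists. ITGB5, the β5 subunit, averaged 94.4. Its values were 97.5 and 98.7, 99.0 and 99.4, 96.9 and 91.3 and 86.4 and 88.7 in the induced groups, and 94.7 and 95.6, 91.5 and 94.2 and 92.5 and 95.8 with sgNC, sgP1 and sgP2. Inside this gene lay the second and the third strongest integrin sites, chr3:124877487-124879559 with a mean percentile of 91.0 and chr3:124832997-124835467 with 86.4, both in 16 of 18 lists. ITGB3, the β3 subunit, averaged 88.8, with 92.1 and 90.4, 73.3 and 85.9, 99.2 and 80.1 and 55.6 and 88.8 in the induced groups and 99.0 and 97.3, 96.5 and 94.7 and 91.9 and 98.4 in AsPC1. The lists of the induced lines therefore spread more for ITGB3 than those of AsPC1. ITGB6, the β6 subunit that activates TGF-β in epithelia, was in 13 pan lists and ITGB8 in 13, ITGA5 in 9, ITGA8 and ITGA2B in 7 each and ITGAV, the α subunit that pairs with several β subunits, in 5.

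None of the 9 leukocyte and α4/α9 integrins was in every pan list. ITGA4 had no peak in any of 18 lists. ITGAL and ITGB2, the subunits of LFA-1, were each in 13 pan lists, ITGAD in 12, ITGAM and ITGB7 in 10, ITGAX in 8, ITGAE in 7 and ITGA9 in 5. ITGAD, ITGAM and ITGAX lie next to each other on chromosome 16 and share sites.

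Among laminin α chains LAMA3, LAMA4 and LAMA5 were in all pan lists and LAMA2, the chain of muscle laminin, in 13. LAMA1, the chain of the first embryonic basement membranes, had no peak in any list. Of the β chains LAMB1, LAMB3 and LAMB4 were in all pan lists and LAMB2 in 12, and both γ chain genes, LAMC1 and LAMC3, were in all. LAMB1 averaged 83.5, with 87.3 and 93.2, 85.1 and 78.9, 89.1 and 77.8 and 69.9 and 71.6 in the induced groups and 86.6 and 87.0, 85.5 and 86.1 and 84.4 and 87.0 in AsPC1. The 6 AsPC1 values thus ranged from 84.4 to 87.0. The strongest laminin sites were chr7:107948887-107949775 inside LAMB1 (mean percentile 78.5), chr1:209662569-209663556 upstream of LAMB3, with its summit at −10.6 kb from the start (78.4), and chr9:130962024-130963070 in the window of LAMC3 (72.8), whose nearest gene was FIBCD1.

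Merging overlapping peaks of all lists gave 363 sites in the windows of the 37 genes. Inside a gene's span lay 157 of them (43.3%), another 61 lay within 10 kb outside it and 145 at 10 to 50 kb. For 229 sites (63.1%) a member was the nearest protein-coding gene. Of the 363, 15 sites were in all 14 pan lists and 77 were in 1 list.

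**Figure D2:**
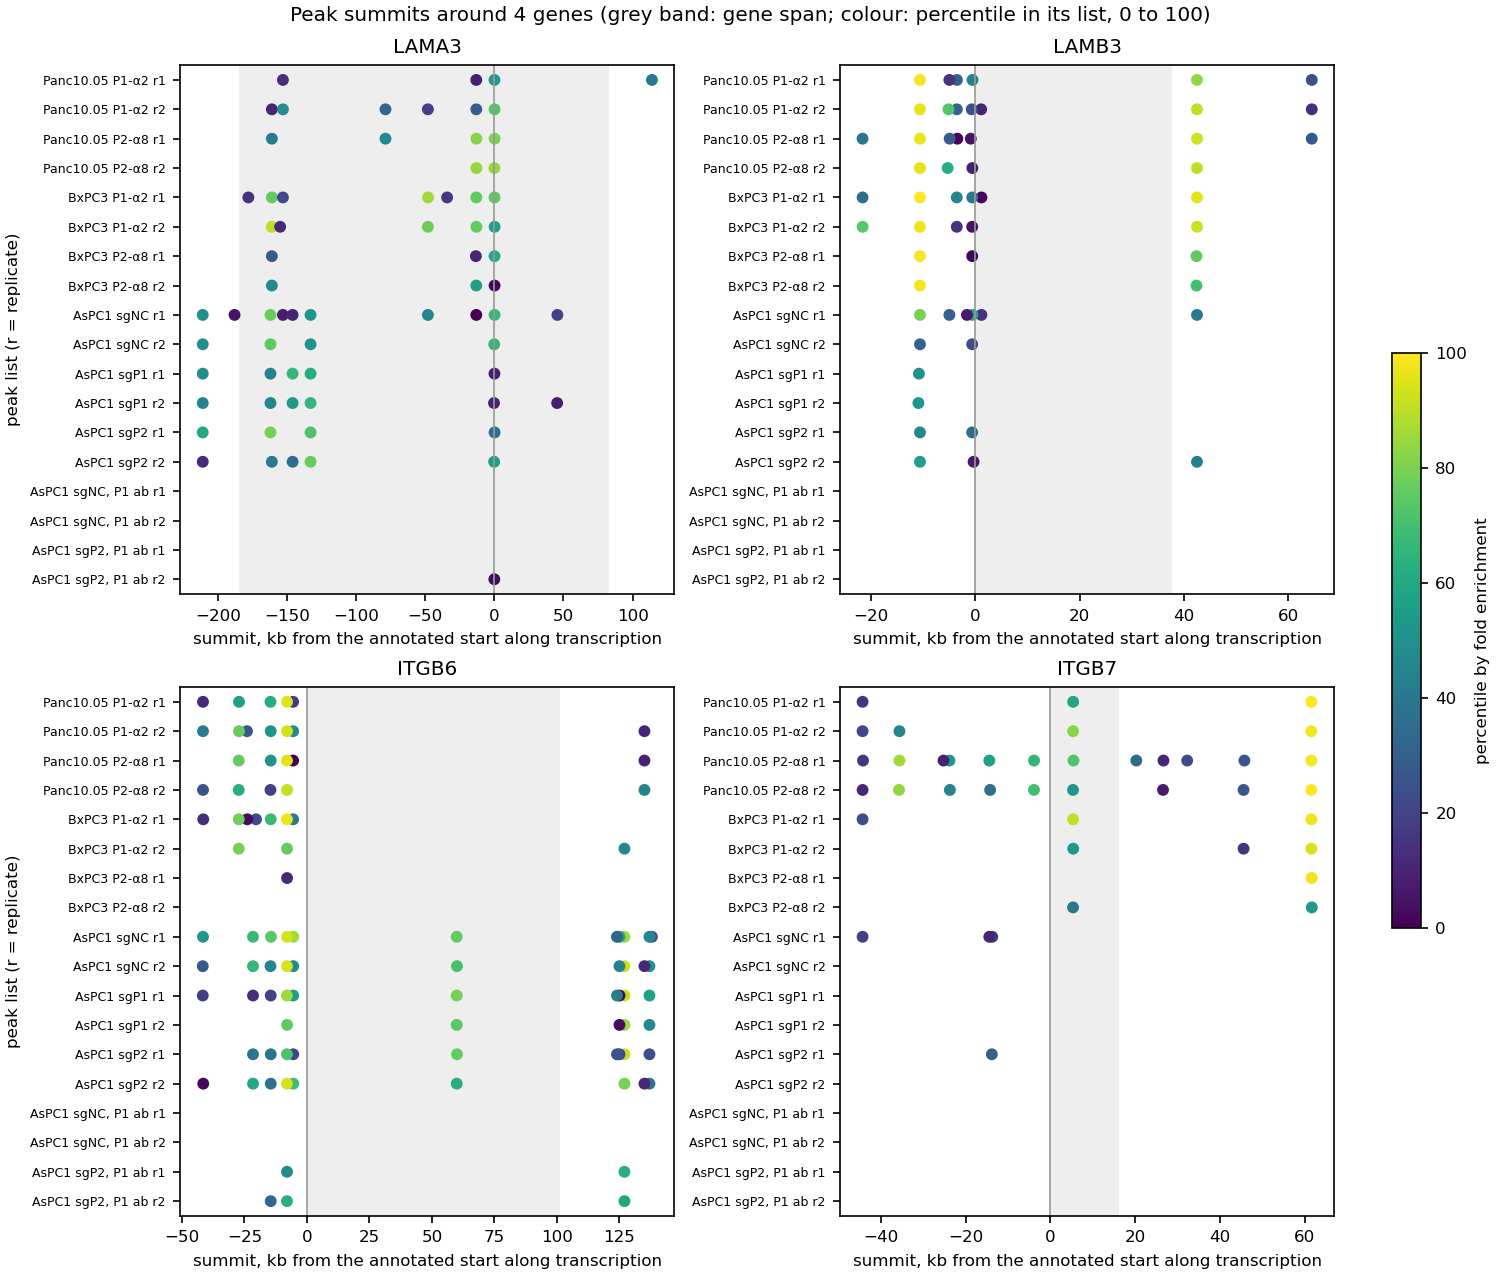
Summits around LAMA3, LAMB3, ITGB6 and ITGB7: distance in kb from the annotated start along the direction of transcription (x axis) in each of 18 lists (y axis), coloured by percentile, with the gene span in grey. LAMA3 has a summit at its start in all 14 pan lists and 1 P1-antibody list, LAMB3 has one at −10.6 kb that is strongest in the induced lines, and ITGB6 has sites seen in AsPC1 lists only.

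The first comparison asked whether the induced P1-α2 and P2-α8 isoforms were found at different genes of the family. In Panc10.05 they were not told apart: 33.0 ± 1.41 genes (SD, n = 2) had a peak with P1-α2 and 34.0 ± 0 with P2-α8, a difference of −1.0 (two-sided exact permutation p = 1.00). Peaks near members per 1000 peaks of the list were 5.33 ± 0.159 and 5.35 ± 0.131, a difference of −0.0282 (two-sided exact permutation p = 0.667). With 2 against 2 libraries the smallest p that such a test can give is 0.333, so no comparison of this size could pass 0.05. No gene had a peak in both P1-α2 lists and neither P2-α8 list (0.928% of all genes did), and ITGAV alone had the reverse (2.59%), at percentiles 7.28 and 33.2. At an equal length of 24828 peaks ITGAV was no longer held by P2-α8 (2.23% of all genes were), and LAMA2 was held by P1-α2 (2.27%). In the full lists LAMA2 stood at 84.8 and 78.0 with P1-α2. With P2-α8 it had no peak in replicate 1 and stood at 25.3 in replicate 2. Of 250 member sites in any of these lists, 10 (4.00%) were in both P1-α2 lists only, where 3.28% of all sites were, and 32 (12.8%) in both P2-α8 lists only, where 11.2% were. The shares near the family lie close to those of all sites. Without P1-α2 replicate 1 the 10 became 25 and without P2-α8 replicate 1 they became 17, and the 32 became 55 without P1-α2 replicate 2 and 64 without P2-α8 replicate 2. Genes held by one isoform numbered 3 without P1-α2 replicate 2 and 2 without either P2-α8 replicate. The strongest of the 32 was chr12:55695222-55696271 inside ITGA7, at 93.1 and 91.1, and the strongest of the 10 was chr3:37417314-37417714, 34617 bp outside the span of ITGA9, at 57.9 and 34.8.

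In BxPC3 34.0 ± 1.41 genes (n = 2) had a peak with P1-α2 and 27.0 ± 2.83 with P2-α8, a difference of 7.0 (two-sided exact permutation p = 0.333, 0.617 after Benjamini-Hochberg adjustment over 9 comparisons). The P1-α2 lists are also longer, 41808 and 33737 peaks against 12681 and 14666, and at an equal length of 12681 peaks the difference was −1.0. Peaks near members per 1000 were 3.88 ± 0.201 and 3.80 ± 0.0235 (difference 0.0748, exact permutation p = 1.00). In both P1-α2 lists and neither P2-α8 list were ITGA8, ITGA2B, ITGA9 and LAMB2, 4 genes, beside 16.5% of all genes, and the reverse held for 0 (0.00998% of all). ITGA8, the α8 subunit, stood at 61.8 and 33.4 with P1-α2, ITGA2B, the platelet αIIb subunit, at 84.0 and 60.6, ITGA9 at 92.6 and 90.4 and LAMB2 at 36.3 and 42.0. At equal length ITGA9 was the one of these 4 still held by P1-α2, beside 3.11% of all genes, and ITGB8, ITGAM and LAMA5 were held by P2-α8, beside 2.10%. The ITGA9 peak at chr3:37456317-37456813, inside the gene, was also the strongest of 52 member sites (28.1% of 185) held by P1-α2 alone, where 28.2% of all sites were, and 0 were held by P2-α8 alone (0.128%). Without P1-α2 replicate 2 the 52 sites became 106, and without P2-α8 replicate 2 the genes held by one isoform became 8.

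The isoform difference was then set between the lines. The difference between isoforms in genes with a peak (P1-α2 minus P2-α8) in Panc10.05 minus that in BxPC3 was −8.00 (exact permutation within lines, two-sided p = 0.167, smallest possible 0.0556). For peaks per 1000 it was −0.103 (exact permutation p = 0.667). A test of this size could not pass 0.05, so it does not show whether the isoform difference was alike in both lines. By best percentile, 6 genes, ITGB1, ITGA8, ITGB5, ITGB2, LAMA3 and LAMB2, had both P2-α8 lists above both P1-α2 lists in Panc10.05 and the reverse order in BxPC3, beside 14.4% of all genes, and 0 genes had the opposite crossing (0.245%). The same peak has a lower percentile in a list that lacks weaker peaks, and at an equal length of 12681 peaks 0 genes had the first crossing and 5, ITGA3, ITGAM, LAMA4, LAMB1 and LAMC3, the other. The share of all genes at that length was not counted, and the 0.245% of the full lists does not stand for it.

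**Figure D3:**
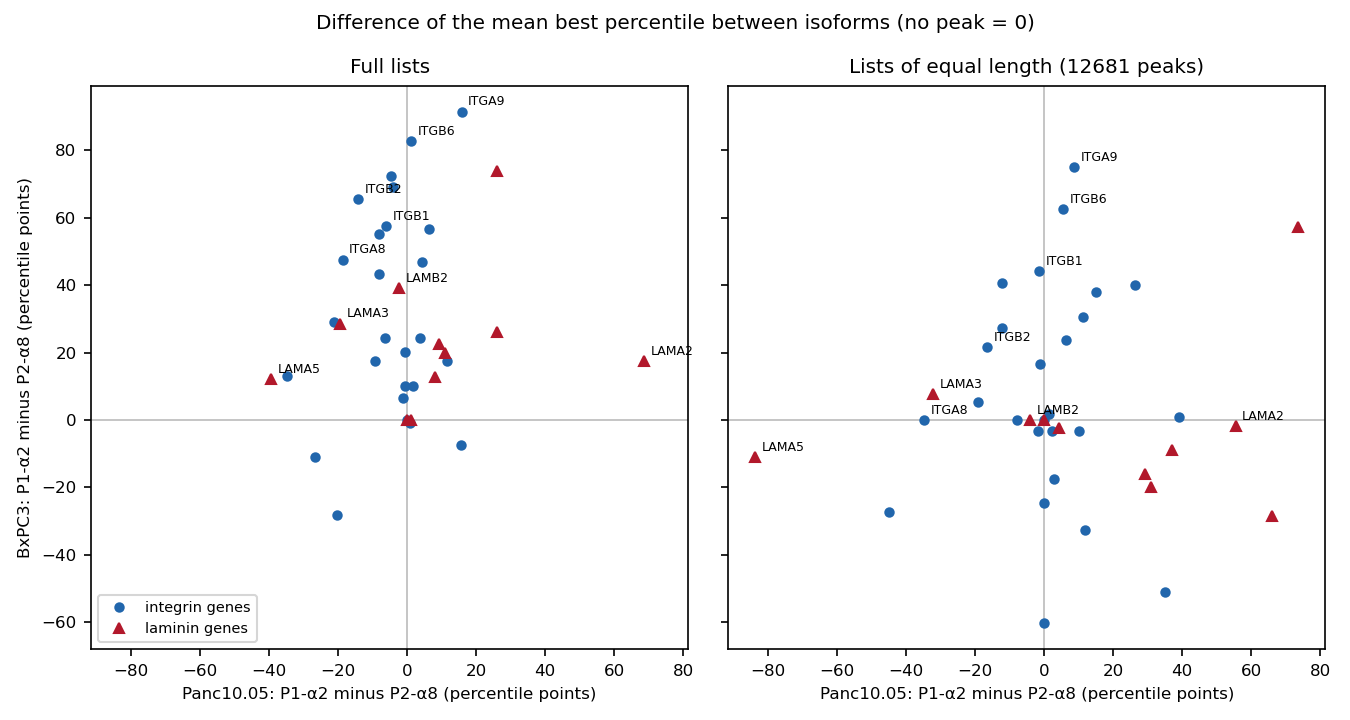
Mean best percentile with P1-α2 minus that with P2-α8 for each of 37 genes in Panc10.05 (x axis) and BxPC3 (y axis), from the full lists (left) and from lists cut to their 12681 strongest peaks (right); 1 point per gene, each axis the difference of means over 2 lists. On the left most points lie above 0 on the BxPC3 axis, and on the right they lie on both sides of it.

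The guides in AsPC1 address what remained near these genes when the P1 or the P2 promoter of HNF4α was repressed. Genes with a peak numbered 27.5 ± 4.95 with sgNC, 25.5 ± 0.707 with sgP1 and 26.5 ± 0.707 with sgP2 (n = 2 each). The difference from sgNC was −2.00 for sgP1 and −1.0 for sgP2 (two-sided exact permutation p = 1.00 for each), and these comparisons share the sgNC libraries. The sgNC replicates themselves, at 31 and 24 genes, spread more than that. No gene of the family was in both lists of a guide and in neither sgNC list (0.170% of all genes for sgP1, 0.130% for sgP2), and none the other way round (3.59% and 2.81%). Between the guides, 0 genes were held by sgP1 alone (0.943%) and 0 by sgP2 alone (1.68%), and the difference of sgP1 from sgP2 was −1.0 genes (exact permutation p = 0.667).

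Peaks near members made up a somewhat larger share of the list with either guide. They numbered 7.45 and 7.54 per 1000 peaks with sgNC, 7.76 and 8.13 with sgP1 and 8.42 and 8.40 with sgP2, and the groups did not overlap. The difference from sgNC was 0.452 for sgP1 and 0.918 for sgP2, and sgP1 minus sgP2 was −0.466 (two-sided exact permutation p = 0.333 for each, the smallest possible, 0.429 adjusted). At equal list length the sgP1 difference was −0.128.

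Few member sites were in sgNC lists only. Of 185 member sites in the sgP1 and sgNC lists, 14 (7.57%) were in both sgNC lists only, beside 8.97% of all sites, and 2 (1.08%) in both sgP1 lists only (0.381%). Of 192 in the sgP2 and sgNC lists, 9 (4.69%) were in both sgNC lists only (7.02%) and 1 (0.521%) in both sgP2 lists only (0.374%). The strongest of the 14 was chr15:68299969-68301019 inside ITGA11, at 62.1 and 67.5 with sgNC. Between the guides, 4 of 150 sites were held by sgP1 alone (2.63% of all sites) and 7 by sgP2 alone (4.36%). Leaving out any 1 library gave 6 to 12 and 12 to 29, the most without sgP1 replicate 2 and without sgP2 replicate 1. Without sgNC replicate 2 the sites held by sgNC alone came to 67 against sgP1 and 57 against sgP2, and the genes held came to 5 and 3. The 14 sites came to 27 without sgP1 replicate 1, the 9 to 18 without sgP2 replicate 2 and to 14 without sgP2 replicate 1. The 2 sites held by sgP1 alone came to 6 without sgNC replicate 1 and 5 without sgP1 replicate 2. The single site held by sgP2 alone came to 10 without sgP2 replicate 1, 6 without sgNC replicate 1 and 3 without sgP2 replicate 2. Counts of so few sites thus moved with 1 library of either arm.

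The antibody to P1 isoforms tested for P1 protein at the same genes when P2 was repressed. In sgNC cells it reached 1 and 0 of the 37 genes and in sgP2 cells 18 and 17, a difference of 17 (two-sided exact permutation p = 0.333, the smallest possible, 0.617 adjusted). Per 1000 peaks the values were 1.43 and 0 in sgNC and 5.77 and 7.41 in sgP2, a difference of 5.87 (exact permutation p = 0.333, 0.429 adjusted). The groups lay far apart on both measures, and the lists did as well: with each cut to 260 peaks, 0 genes were held by sgP2 alone. In the full lists 12 genes were in both sgP2 lists and neither sgNC list, beside 17.1% of all genes, and 0 the other way (0%).

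ITGB3 at 82.0 and 94.4 and ITGA7 at 88.1 and 81.2 were the highest of the 12 with the P1 antibody in sgP2 cells. LAMA2 stood at 74.6 and 72.1, ITGB5 at 67.9 and 71.0, ITGB6 at 62.5 and 63.2, LAMB1 at 59.0 and 50.6 and LAMA5 at 36.2 and 39.2, so these 5 were alike in both replicates. LAMB2 (77.3 and 49.1), ITGB4 (76.2 and 31.0), ITGAL (64.5 and 20.0), ITGB1 (28.0 and 49.1) and LAMC3 (44.9 and 7.51) differed more between replicates. The peaks behind the values of LAMB2, ITGB4, ITGAL and LAMC3 were nearest to other genes: CCDC71, GALK1, ZNF764 and FIBCD1. The ITGB6 peak at 62.5 was nearest to PLA2R1. ITGA3 had 78.2 and 90.9 with sgP2 and missed the count because of its peak in 1 sgNC list. By site, 19 of 39 (48.7%) were in both sgP2 lists and neither sgNC list, beside 38.7% of all sites, and 0 in both sgNC lists alone (0%). The strongest were chr17:47316147-47317152, 2809 bp outside ITGB3, and chr12:55681076-55683034, the TMT1B promoter in the ITGA7 window.

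Within sgP2 cells the member sites of the P1 antibody were set on those of the pan antibody, whose lists are longer. The 30 and 29 member sites of the P1-antibody lists all lay on a peak of a pan sgP2 list, and of 87 sites in both pan sgP2 lists 38 were in at least 1 P1-antibody list and 20 in both. The same shares over all sites were not counted, so this overlap is not shown to be particular to these genes. Genes with a peak numbered 26.5 ± 0.707 with the pan antibody and 17.5 ± 0.707 with the P1 antibody, a difference of 9.0, and peaks per 1000 differed by 1.83 (exact permutation p = 0.333 for both). ITGB8 (39.9 and 55.2), ITGAD (9.13 and 30.9) and LAMB3 (46.5 and 55.6) were in both pan lists and neither P1-antibody list, 3 genes beside 17.6% of all, and 0 were the reverse (0.0200%). All of their pan percentiles were moderate or low, and with each list cut to 3916 peaks these 3 were no longer held by the pan antibody. At that length ITGA1 and ITGA2 were (1.21% of all genes), and LAMA5 was held by the P1 antibody (0.799%).

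**Figure D4:**
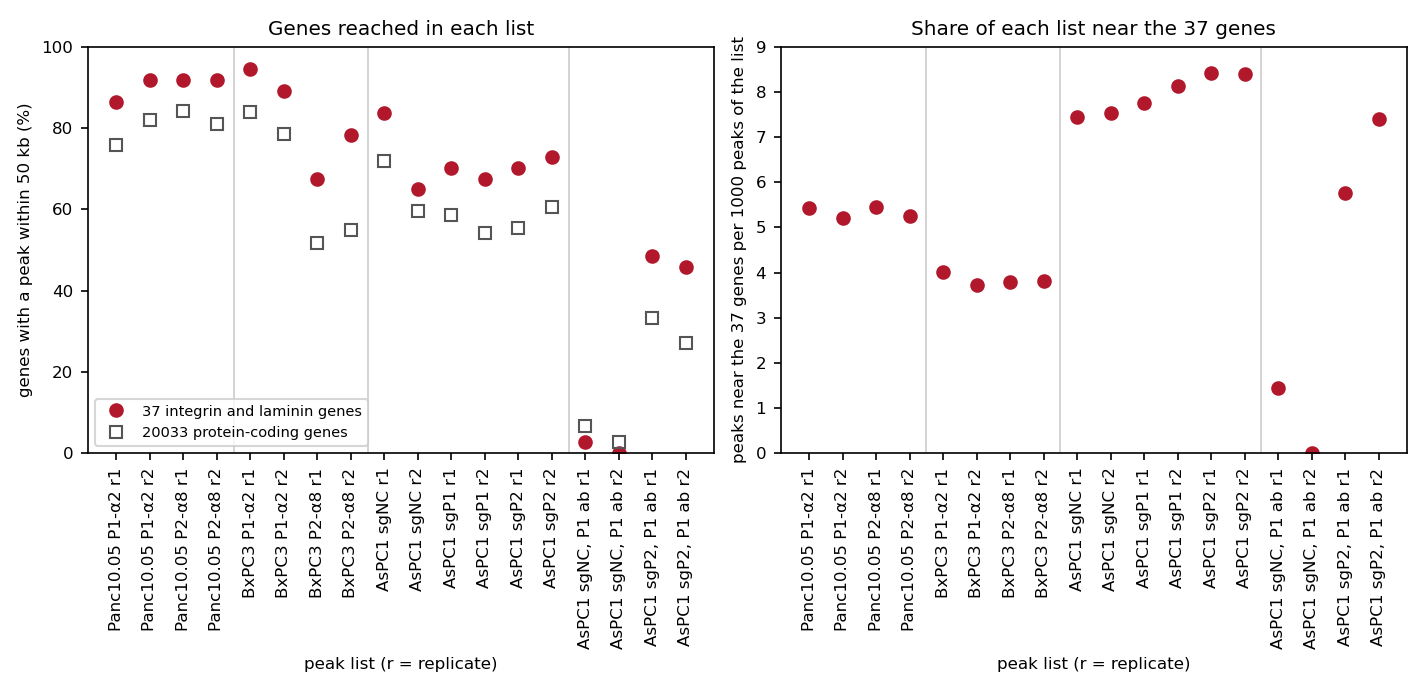
Left, the percentage of the 37 genes (filled circles) and of all 20033 protein-coding genes (open squares) with a peak within 50 kb in each of 18 lists; right, peaks near the 37 genes per 1000 peaks of the list. On the right each point is 1 library, and the 4 Panc10.05 lists (5.21 to 5.45), the 4 BxPC3 lists (3.73 to 4.02) and the 6 AsPC1 pan lists (7.45 to 8.42) form separate ranges, with AsPC1 lists beginning at a lower −log10 q.

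The lines were compared next. Peaks near members per 1000 peaks were 5.34 ± 0.120 in Panc10.05 and 3.84 ± 0.124 in BxPC3 (SD, n = 4 each), a difference of 1.5 (two-sided exact permutation p = 0.0286, the smallest possible, 0.129 adjusted over 9 comparisons). Each n = 4 pools the lists of both isoforms. Doxycycline was 25 or 12.5 ng/mL in Panc10.05 and 500 ng/mL in BxPC3, so line and dose cannot be told apart. The lines did not overlap, with P1-α2 (5.33 against 3.88) or with P2-α8 (5.35 against 3.80). Genes with a peak were 33.5 ± 1.00 and 30.5 ± 4.43, a difference of 3.00 (exact permutation p = 0.343). No gene was in all 4 lists of one line and none of the other (2.48% of all genes for Panc10.05, 0.609% for BxPC3). By best percentile all Panc10.05 lists lay above all BxPC3 lists for 7 genes, ITGA3, ITGA6, ITGA8, ITGB5, ITGB7, LAMA5 and LAMB2, beside 16% of all genes, and the reverse held for 0 (3.62%).

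LAMB2 showed the widest gap of these, with 95.6, 96.5, 98.6 and 97.8 in Panc10.05 and 36.3, 42.0 and no peak in both P2-α8 lists in BxPC3. Its promoter, like that of ITGA2, was overlapped in 4 of 4 Panc10.05 lists and in 0 of BxPC3. Of all promoters, 7.66% to 19.4% were overlapped in a Panc10.05 list and 1.34% to 6.43% in a BxPC3 list. The share of all promoters split in this way between the lines was not counted. LAMA5, the α5 chain of most adult epithelial basement membranes, had 52.7, 59.5, 98.5 and 92.1 in Panc10.05 and 45.9, 11.1, 1.98 and 30.6 in BxPC3. At equal list length 4 genes had this order, ITGA3, ITGA8, ITGB5 and LAMB2, beside 10.6% of all genes, a share near that of the family.

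AsPC1 sgNC cells, in which no isoform was induced, were set against the 8 induced lists at −log10 q of at least 8. These 8 pool both induced lines, both isoforms and their doxycycline doses, so their SD includes the gap between the lines. Cell line, induction, doxycycline and guide all differ between the arms and cannot be told apart. Peaks near members numbered 7.70 ± 0.149 per 1000 in sgNC (n = 2) and 4.59 ± 0.810 in the induced lists (n = 8), a difference of 3.11 (two-sided exact permutation p = 0.0222, the smallest possible, 0.129 adjusted). Genes with a peak were 26.0 ± 2.83 and 32.0 ± 3.38, a difference of −6.0 (exact permutation p = 0.0444, 0.400 adjusted). The sgNC lists thus had more member peaks per 1000 and fewer members with a peak, and neither difference passed after adjustment. ITGAX and ITGB7 were in all 8 induced lists and neither sgNC list, beside 6.0% of all genes, and 0 genes were the reverse (0.200%).

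The same rate was taken gene by gene. In 9 of 37 genes both sgNC lists had more peaks per 1000 than every induced list, beside 15.8% of all genes: ITGB4, ITGB1, ITGB6, ITGB8, ITGB2, LAMA2, LAMA3, LAMA4 and LAMA5. LAMA5 had 0.707 and 0.846 in sgNC and 0.0593 to 0.322 in the induced lists. ITGB4 had 0.589 and 0.940 against 0.0593 to 0.297, and ITGB6 had 0.589 and 0.846 against 0 to 0.205. In 6 genes every induced list was above both sgNC lists, beside 9.06% of all genes: ITGA1, ITGA2, ITGAD, ITGAX, ITGB7 and LAMB4. ITGA1 and ITGA2, which share sites, had 0.177 and 0.0940 and 0.118 and 0.0940 in sgNC, and 0.205 to 0.362 and 0.167 to 0.394 in the induced lists. These orders are of the sgNC lists. Over all 6 AsPC1 pan lists ITGB8 (from 0.105) and ITGB2 (from 0.122) overlapped the induced lists (up to 0.158 and 0.179), as did ITGA1 (up to 0.328) and ITGA2 (up to 0.245).

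**Figure D5:**
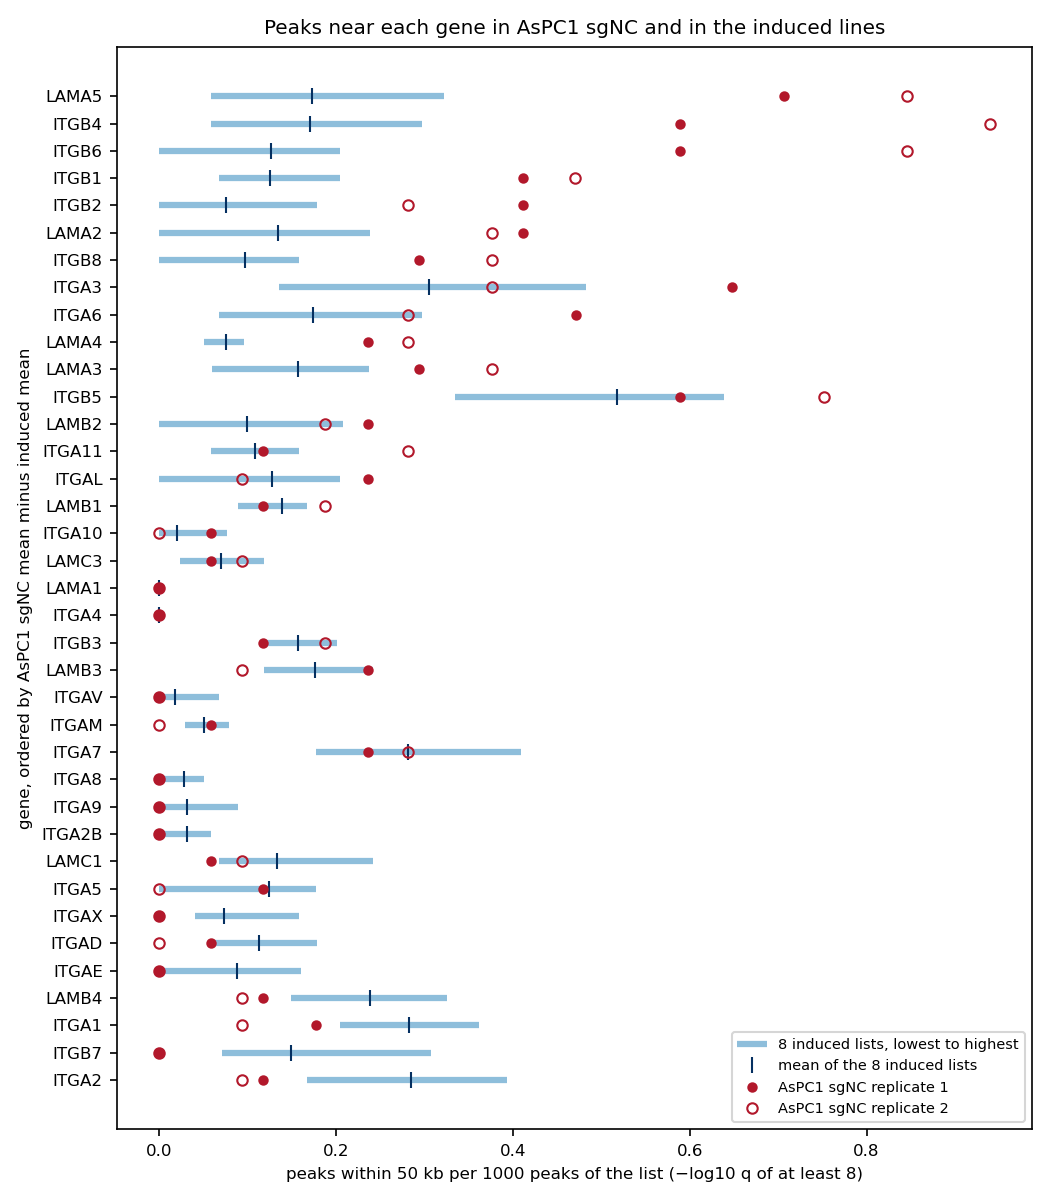
Peaks within 50 kb of each of 37 genes per 1000 peaks of the list, all at −log10 q of at least 8 (x axis), for the 2 AsPC1 sgNC lists (red circles) and the 8 induced lists (blue bar from the lowest to the highest, tick at the mean). Genes are ordered by the difference of means: LAMA5, ITGB4 and ITGB6 at the top lie to the right of the blue bars, ITGA2 and ITGB7 at the bottom to the left.

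Single sites were counted by line as well, over 334 member sites at −log10 q of at least 8. In all 6 AsPC1 pan lists and no induced list were 4 (1.20%), beside 0.844% of all sites, and in all 8 induced lists and no AsPC1 pan list were 10 (2.99%), beside 2.92%. With the full lists, whose thresholds differ, the counts were 9 of 363 (2.48%, beside 1.21%) and 8 (2.2%, beside 2.33%). The induced-only share was close to that of all sites. The 4 included chr2:160139711-160140714 inside ITGB6, at full-list percentiles of 76.0 and 70.7 with sgNC, 79.6 and 74.4 with sgP1 and 75.9 and 62.8 with sgP2. It also included chr18:23740086-23740856 inside LAMA3, at 53.4 and 51.9, 61.7 and 66.0 and 71.6 and 76.9. Both were thus present under every guide. The 10 included chr12:53145231-53146096, in the ITGB7 window but nearest to CSAD, at 99.4, 98.4, 99.1 and 99.9 in Panc10.05 and 98.0, 94.1, 97.3 and 54.2 in BxPC3.

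By best percentile 4 genes, ITGAD, ITGAX, ITGB7 and LAMB3, had every induced list above both sgNC lists, beside 12.9% of all genes, and 0 had the reverse (4.58%). LAMB3, the β3 chain of laminin-332, had its best peak at the site near −10.6 kb, at 98.7, 96.4, 96.8 and 95.7 in Panc10.05, 99.4, 97.6, 98.7 and 98.2 in BxPC3 and 70.8 and 7.28 in sgNC at this threshold. In the 6 full AsPC1 pan lists the same site stood at 31.6 to 79.6, and in the 4 P1-antibody lists there was no peak. At an equal length of 10633 peaks LAMB3 and ITGB7 had this order, beside 5.64% of all genes, and ITGA7, ITGB1, ITGAL and ITGB2 the opposite one, beside 13.2%.

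Of 36 other adhesion genes (focal adhesion, hemidesmosome and basement membrane genes and other integrin ligands), 20 had a peak in all 14 pan lists, beside 29.6% of all genes. COL4A5 and SPP1 had a peak in none. Highest were AGRN, the basement membrane proteoglycan agrin, at a mean best percentile of 97.8, VCL, the focal adhesion protein vinculin, at 96.3, and TNS3, which links integrins to actin, at 96.0. All 4 hemidesmosome genes, PLEC, DST, COL17A1 and CD151, were in every pan list and in both P1-antibody lists of sgP2 cells, as ITGB4 was. The ITGB4 site in both of these P1-antibody lists was nearest to GALK1. Of all genes, 29.6% were in every pan list and 23.7% in both of those P1-antibody lists. Both lists of a group held 34 of the 36 in Panc10.05 P1-α2, beside 74.5% of all genes, and 34 in Panc10.05 P2-α8 (79.5%). They held 33 in BxPC3 P1-α2 (76.6%), 27 in BxPC3 P2-α8 (45.4%) and 27 with sgNC (58.5%). With sgP1 they held 26 (50.6%) and with sgP2 25 (52.0%). For the P1 antibody the counts were 4 in sgNC (2.31%) and 17 in sgP2 cells (23.7%).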

How the data were processed

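Of the 32 ChIP-seq libraries, 18 immunoprecipitated ones have a deposited narrowPeak list each, so peaks were called per library. In the lists the authors deposited, fold enrichment is a linear ratio, p and q are −log10 values and an integer score was not used further. Per the submitters' processing notes, which name tools without their roles, the study involved Bowtie2 2.2.9, MACS2 2.2.7 and the builds hg38 and mm10. The build of each list is not given in the sources used here, and hg38 was taken for these human lines. Read depth is unknown.

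Computed here, with Python 3.11.15, numpy 2.4.6, pandas 2.3.3, bedtools 2.31.1 and matplotlib 3.10.9: summits within 50 kb of each RefSeq gene span were counted, each peak was ranked within its list by fold enrichment, and overlapping peaks were merged into sites. The gene table is GRCh38.p14. Windows of neighbouring genes overlap. On simulated peaks 200 of 200 planted windows were recovered, and 0 of 380627 gene counts differed from those of bedtools.

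Group means were compared by two-sided exact permutation tests over libraries, adjusted over 9 comparisons (Benjamini-Hochberg). Counts of genes or sites held by one group are descriptions, given beside the same share of all genes or sites. Values in each list of the comparison were given for members held by one group in an isoform, guide or antibody comparison, for the 6 members with the highest mean best percentile, for the 3 strongest integrin and the 3 strongest laminin sites, and members with no peak and the 3 highest of 36 other adhesion genes were named. Other members and sites named in the comparisons were chosen after their values were seen. Members, lists and tests were chosen with earlier results of these data known. Replicate numbers are only names: same-numbered lists correlated at −0.128 to 0.0933. The alternatives were a 10 kb window, stricter −log10 q (8 and 20), ranking by p, equal list lengths, a replicate block and leaving out each library.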

Additional observations from a re-analysis of the deposited data

Results flagged for a closer look

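In 6 of 37 genes both P2-α8 libraries lay above both P1-α2 libraries in Panc10.05 and the order was the reverse in BxPC3. Of all genes 14.4% had this crossing, a share near that of the family, and at an equal length of 12681 peaks 0 of the 37 had it. The difference of best percentile (P1-α2 minus P2-α8) in Panc10.05 minus that in BxPC3 was −63.5 points for ITGB1 (−6.01 and 57.5 in the 2 lines), −66.2 for ITGA8 (−18.6 and 47.6) and −79.7 for ITGB2 (−14.2 and 65.5). It was −48.0 for LAMA3 (−19.4 and 28.6), −41.3 for LAMB2 (−2.15 and 39.1) and −7.70 for ITGB5 (−1.09 and 6.61). These differences were not tested for any single gene. With lists of equal length the BxPC3 difference was 44.2 for ITGB1, 21.6 for ITGB2, 7.66 for LAMA3, 0 for ITGA8 and LAMB2 and −3.25 for ITGB5. The Panc10.05 difference was then −1.29 for ITGB1, −16.3 for ITGB2, −32.1 for LAMA3, −34.7 for ITGA8, −3.95 for LAMB2 and −1.83 for ITGB5.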

How the results depend on the processing

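Of 299 values under alternatives, 235 were called the same, 51 moved and 13 changed sign, and 0 of 18 tests passed 0.05 after adjustment. Genes held by one group were compared by their number summed over both directions, whichever genes made it up. At equal length the genes changed under an unchanged sum for the Panc10.05 isoforms, the BxPC3 isoforms and the sgP2 antibodies. With a replicate block the exact permutation p went from 0.0286 to 0.0556 for Panc10.05 against BxPC3 per 1000, and for AsPC1 sgNC against induced lines from 0.0222 to 0.0400 per 1000 and from 0.0444 to 0.0800 in genes; none had passed after adjustment, and 0 calls came with the sgP2 and sgNC numbers crossed.

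Signs changed as follows. The Panc10.05 isoform difference in peaks per 1000 became 0.163 with a 10 kb window and 0.262 at equal list length, and ran from −0.140 to 0.0841 leaving out a library. That of BxPC3 became −0.0788 and −0.118 and ran from −0.0670 to 0.217; its difference in genes became −1.0 at equal length. At equal length sgP1 minus sgNC became 1.00 genes and −0.128 per 1000, and sgP2 minus sgNC 1.5 genes; leaving out a library they ran from −5.50 to 1.5 and from −4.50 to 2.50 genes, positive without sgNC replicate 1. The cause was not tested.

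Genes held by one group, both directions summed, with a 10 kb window were 2 (Panc10.05 isoforms), 7 (BxPC3 isoforms), 1 (sgP1 against sgNC), 1 (sgP1 against sgP2), 6 (sgP2 antibodies) and 2 (Panc10.05 against BxPC3). At equal length they were 1 (sgP2 against sgNC), 0 (P1 antibody), 2 (Panc10.05 against BxPC3) and 1 (sgNC against induced), and 7 for the sgP2 antibodies at −log10 q of at least 8. Leaving out a library gave 1 to 3, 4 to 8, 0 to 5 (sgP1 against sgNC), 0 to 3 (sgP2 against sgNC), 0 to 3 (sgP1 against sgP2), 4 to 8 (sgP2 antibodies) and 2 to 4 (sgNC against induced). Site counts, sites by line, gene-level peaks per 1000, ordered percentiles and crossed numbers were chosen after seeing the data.

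Comparisons of 2 against 2 libraries allow no p under 0.333, the depth behind the lists is unknown, and the number of genes reached moves with list length.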
